A study of Bos taurus with 2 samples.

Results

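The mir-23, mir-27 and mir-24 genes stand side by side in a pair of paralogous clusters in mammals. The 5 names mir-23a, mir-23b, mir-24, mir-27a and mir-27b were looked up in the deposited tables and gave 7 unique mature miRNAs, 5 from the 3p arm and 2 from the 5p arm, out of 283 known bovine miRNAs and 884 unique miRNAs in all. The rule used the names and no read numbers, though the group was proposed with earlier results of these data known. Small RNA was sequenced from the mammary gland of 1 cow in lactation, 6 years old and 2 months in milk, and of 1 cow outside lactation, 4 years old and not pregnant. There was 1 library per condition, named lactation and non-lactation here, so no difference given here has a replicate check, and stage, age and animal cannot be told apart. The paper names a Qiagen kit for the RNA and an Illumina small RNA kit for the libraries, whereas the sample labels name Trizol and TruSeq.

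The members of each cluster are cut from hairpins of a shared primary transcript, and each mature strand finds its target mRNAs mainly through its seed, bases 2 to 8. The a and b forms of mir-23 and of mir-27 carry the same seed and are therefore expected to share most targets, while mir-24 has a seed of its own. In other tissues the clusters are best known from endothelium and vessel growth, miR-27 as a brake on fat cell formation and on the lipid regulator PPARγ, miR-23 as a repressor of glutaminase, and miR-24 from control of the cell cycle. These functions are background and were not measured here.

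On the BTA 4.0 assembly the chromosome 7 cluster held mir-23a (chr7:10102128-10102200), mir-27a (chr7:10102302-10102379) and mir-24 (chr7:10102457-10102528), all on the plus strand within 401 nt. The chromosome 8 cluster held mir-23b (chr8:85962044-85962103), mir-27b (chr8:85962252-85962348) and the second copy of mir-24 (chr8:85962806-85962873), also on the plus strand and within 830 nt. The order 23, 27, 24 was the same in both. In RefSeq, which is on another assembly and was used for names alone, the chromosome 8 genes MIR23B, MIR27B and MIR24-1 lie within the span of AOPEP, an aminopeptidase gene. MIR23A, MIR27A and MIR24-2 on chromosome 7 lie within the span of a locus with no name beyond LOC132345691. The nearest other known pre-miRNA was mir-181c, 81756 nt from the chromosome 7 cluster on the opposite strand.

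**Figure D1:**
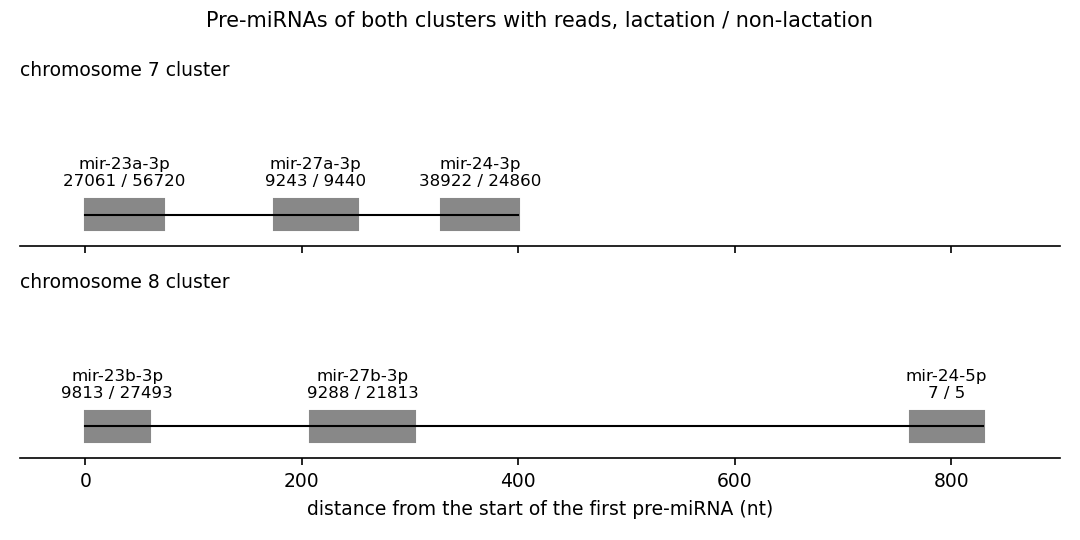
Pre-miRNAs of the chromosome 7 and chromosome 8 clusters drawn to scale by distance from the start of the first pre-miRNA (nt), each with its lactation and non-lactation reads of the most abundant sequence. The reads, not scaled to the library totals, were 27061 and 56720 for mir-23a-3p and 38922 and 24860 for mir-24-3p. These members, whose chromosome 7 pre-miRNAs start 329 nt apart, thus leaned towards different libraries. The mir-24-3p reads are drawn on chromosome 7, where they are listed, but may also come from the chromosome 8 copy. For the chromosome 8 copy of mir-24 the 5p arm is shown, since the 3p arm is not listed at that position.

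The listed sequences are shown with the seed in capitals, because they decide which members can be told apart in the reads. They were read from the deposited tables and run 5′ to 3′.
mir-23a-3p: aUCACAUUgccagggauuu
mir-23b-3p: aUCACAUUgccagggauuacca
mir-27a-3p: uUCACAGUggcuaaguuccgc
mir-27b-3p: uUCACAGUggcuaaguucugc
mir-24-3p: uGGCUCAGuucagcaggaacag
mir-23b-5p: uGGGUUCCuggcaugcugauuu
mir-24-5p: gUGCCUACugagcugauauca

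The 3p forms of mir-23a and mir-23b were identical over their first 18 bases and differed by U19A in the 19 bases that both have, counted from the 5′ end with the a form first. mir-27a-3p and mir-27b-3p were also identical over 18 bases and differed by C19U, their only difference in 21 bases. A read of 18 bases or fewer from the 5′ end therefore fits both paralogs, and how such reads were assigned is not given in the sources used here. The 3p strand of mir-24 is listed on chromosome 7 and not on chromosome 8, so its reads could not be divided between the clusters. The 5p sequences listed for the copies of mir-24 share 16 bases and then differ, but only 1 pair of read numbers is given for both.

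Further loci are listed under the same entries with other sequences. The second locus of mir-23a, on chromosome 6 (chr6:25590959-25591021), differs by U2G, which falls in the seed. Those of mir-27a on the minus strand of chromosome 8 (chr8:87496729-87496826) and of mir-24-3p on chromosome 18 (chr18:12671130-12671207) differ by C18A and G17A. The tables give values only on the chromosome 7 lines of these entries.

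Hairpins with both arms in capitals show where the 5p and 3p strands lie in mir-23a (chr7:10102128-10102200), mir-23b (chr8:85962033-85962114) and mir-27b (chr8:85962252-85962348), all read on the plus strand from the predicted or conserved entries that overlap them. The mir-23b hairpin is the longer form listed with the conserved entry PC-23b-2, and the coordinates given are of that form.
mir-23a hairpin: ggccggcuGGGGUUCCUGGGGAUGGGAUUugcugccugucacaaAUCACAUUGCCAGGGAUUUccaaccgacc
mir-23b hairpin: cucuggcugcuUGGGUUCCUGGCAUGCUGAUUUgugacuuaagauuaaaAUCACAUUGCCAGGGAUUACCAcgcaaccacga
mir-27b hairpin: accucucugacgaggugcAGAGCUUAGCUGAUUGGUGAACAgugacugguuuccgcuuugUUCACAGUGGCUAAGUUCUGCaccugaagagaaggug

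For each miRNA the tables give reads of 1 listed sequence, the most abundant, and summed reads of all isomiRs, meaning its length and sequence variants. Over all entries the listed sequences summed to 5745961 lactation and 7879028 non-lactation reads, and isomiRs to 10259829 and 14747740. RPM are the reads of a listed sequence scaled to the clean reads of its library, unless all isomiRs are named. Each ratio divides the lactation RPM by the non-lactation RPM and has an exact 95% interval for counting error only. With 1 library per condition the interval covers no spread between animals. It also treats reads as independent, which copies made by PCR are not, so it may be too narrow. The members together made up 1.67% of known miRNA reads in lactation and 1.83% in non-lactation. With all isomiRs the shares were 2.44% and 2.42%.

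The direction differed among the 3p members and followed neither the seed nor the cluster alone. mir-24-3p was higher in the lactation library, both mir-23 forms and mir-27b-3p were lower, and mir-27a-3p was modestly higher, a direction that turned when the reads were not scaled. mir-24-3p had 38922 lactation reads and 24860 non-lactation reads, or 3253 and 1557 RPM, a ratio of 2.09 (2.06 to 2.12). It ranked 19 among the 283 known miRNAs of the lactation library and 29 in the other. By the listed sequence it was the most abundant member in the lactation library and stood behind both mir-23 forms in the other. With all isomiRs mir-23a-3p led in lactation too, at 7550 RPM against 4935 for mir-24-3p.

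mir-23a-3p had 27061 and 56720 reads, or 2262 and 3552 RPM, which is 1.57-fold lower in the lactation library (1.55 to 1.59). mir-23b-3p had 9813 and 27493 reads, or 820.1 and 1722 RPM, and was 2.10-fold lower (2.05 to 2.15). The study's list of differing miRNAs gives this name with another sequence and other read numbers, a conflict that was not resolved. The paper counts mir-23b-3p among miRNAs high in the non-lactation period alone, whereas both libraries held many reads here. It also compared the stages by microarray on RNA pooled from cows of each stage, which was not used here. The values here are those of the deposited table of known miRNAs. Both forms of mir-23 were thus lower in the lactation library, the b form by more.

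mir-27b-3p had 9288 and 21813 reads, or 776.3 and 1366 RPM, and was 1.76-fold lower in the lactation library (1.72 to 1.80). mir-27a-3p had 9243 and 9440 reads, or 772.5 and 591.2 RPM, a ratio of 1.31 (1.27 to 1.34) that became 0.979 without scaling to the library totals. The pair with the same seed, whose lactation levels by the listed sequence were within counting error of each other, thus stood apart in the non-lactation library. There mir-27b-3p ranked 30 and mir-27a-3p ranked 43 among the known miRNAs, against 39 and 40 in the lactation library.

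The 5p strands were rare. mir-23b-5p had 36 and 64 reads, a ratio of 0.751 (0.485 to 1.15), and mir-24-5p had 7 and 5 reads, a ratio of 1.87 (0.510 to 7.47). Both intervals include 1, so no difference was detectable at this depth.

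**Figure D2:**
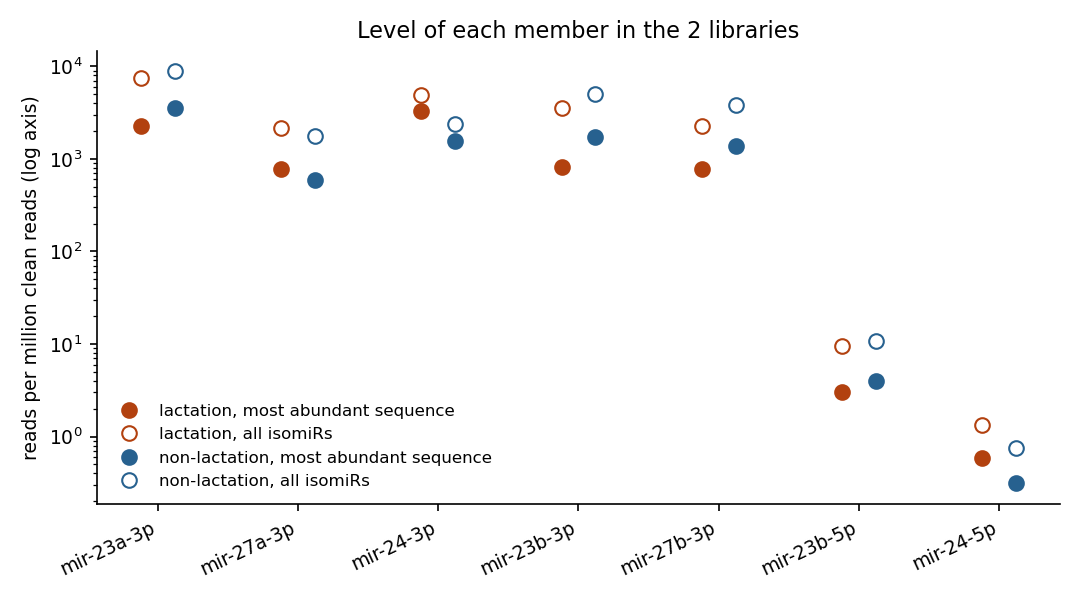
Level of the 7 members in lactation (orange) and non-lactation (blue), in RPM on a log axis, with filled circles for the most abundant sequence and open circles for all isomiRs. mir-24-3p is the highest filled circle of the lactation library at 3253 RPM and mir-23a-3p that of the non-lactation library at 3552 RPM, while both 5p strands lie at or below 10.8 RPM.

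Of the 6 members with at least 100 summed reads, 1 passed a 2-fold rise in lactation (mir-24-3p), as did 28.9% of 273 miRNAs of that depth, and 1 passed a 2-fold fall (mir-23b-3p), as did 22.7%. Changes of this size were thus common in these libraries and the members' share was not above the background. A two-sided Fisher's exact test of the read numbers, with Bonferroni adjustment for 883 miRNAs, called 2 of the 7 members higher, mir-24-3p and mir-27a-3p, against 17.4% of all miRNAs. It called 3 lower, mir-23a-3p, mir-23b-3p and mir-27b-3p, against 10.9% of all. That test compares these libraries, not the conditions, and at high read numbers it calls small differences. The median log2 ratio was -0.65 over the 3p members, which is the value of mir-23a-3p, and 0.24 over the 273 miRNAs. With all isomiRs the medians lay closer together, at -0.23 over the 3p members and 0.15 over 343 miRNAs.

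The total used for scaling moved every log2 ratio by the same amount, by 0.04 with the sum of the listed reads, by -0.10 with raw reads, by -0.26 with TMM, by -0.28 with DESeq2 size factors and by -0.42 without scaling. Scaling by TMM brought the median over the 273 miRNAs to -0.02. Under it mir-24-3p had a ratio of 1.74 and mir-27a-3p one of 1.09, while mir-23a-3p, mir-23b-3p and mir-27b-3p were at 0.531, 0.397 and 0.474. mir-24-3p was no longer past 2-fold and mir-27b-3p was.

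**Figure D3:**
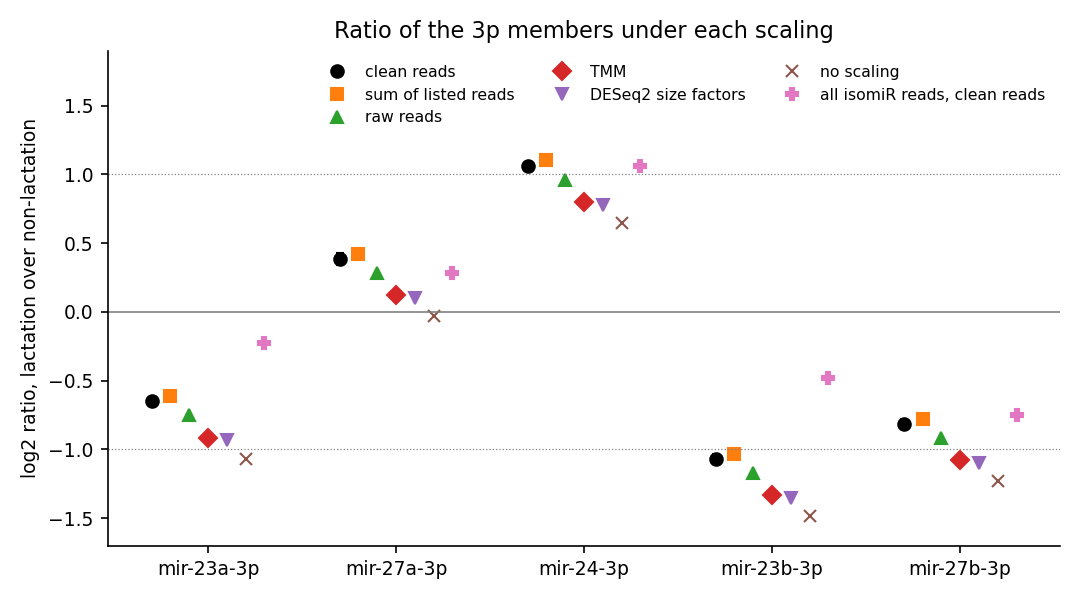
Log2 ratio of the 3p members, lactation over non-lactation, under each scaling and with all isomiR reads, with the exact interval on the main value, which is about as narrow as its symbol, and dotted lines at 2-fold. mir-24-3p lies above 0 and mir-23a-3p, mir-23b-3p and mir-27b-3p below it at every setting plotted, and mir-27a-3p falls just below 0 without scaling.

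Ratios between members within a library do not depend on the library total, so they were compared for all 10 pairs of 3p members. In the chromosome 7 cluster mir-24-3p had 4.21 reads for each read of mir-27a-3p in lactation and 2.63 in non-lactation, an odds ratio of 1.60 (1.55 to 1.65). mir-23a-3p had 2.93 reads for each read of mir-27a-3p in lactation and 6.01 in non-lactation, an odds ratio of 0.487 (0.472 to 0.503). mir-23a-3p had 0.695 reads for each read of mir-24-3p in lactation and 2.28 in non-lactation, so the balance of these neighbours moved 3.28-fold (3.21 to 3.35). By the listed sequences mir-24-3p made up 51.7% of the 75226 3p reads of the cluster in lactation, and mir-23a-3p 62.3% of 91020 in non-lactation. With all isomiRs mir-23a-3p led in both, at 51.5% in lactation and 68.0% in non-lactation, and mir-24-3p held 33.7% and 18.2%. Since mir-24-3p may also come from chromosome 8, its part in the cluster is an upper limit.

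In the chromosome 8 cluster the balance of the mapped 3p strands moved less than that of mir-23a-3p to mir-27a-3p on chromosome 7. The odds ratio of that chromosome 7 pair was 0.487 by the listed sequences and 0.703 (0.690 to 0.716) with all isomiRs. mir-23b-3p had 1.06 reads for each read of mir-27b-3p in lactation and 1.26 in non-lactation, an odds ratio of 0.838 (0.811 to 0.867). With all isomiRs the order turned, with 1.58 and 1.31 reads and an odds ratio of 1.20 (1.18 to 1.23). No direction can therefore be given for this pair.

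The a forms held a larger share of their seed family in the lactation library. mir-23a-3p made up 73.4% (72.9 to 73.8) of the reads of both mir-23 forms there and 67.4% (67.0 to 67.7) in non-lactation, an odds ratio of 1.34 (1.30 to 1.37). mir-27a-3p made up 49.9% (49.2 to 50.6) of the reads of both mir-27 forms and 30.2% (29.7 to 30.7) in non-lactation, an odds ratio of 2.30 (2.21 to 2.39). With all isomiRs these odds ratios were 1.20 and 2.05. The chromosome 7 form was thus favoured in the lactation library in both families, more so for mir-27.

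All 10 pairs passed Fisher's exact test after Bonferroni adjustment over the pairs, with the listed sequences and with all isomiRs. By the listed sequences the odds ratio nearest to 1 was that of mir-23a-3p to mir-27b-3p, at 1.12 (1.09 to 1.15), and the farthest was that of mir-23b-3p to mir-24-3p, whose balance moved 4.39-fold (4.26 to 4.51). With all isomiRs these pairs stood at 1.44 (1.42 to 1.46) and 2.91-fold (2.86 to 2.97), the nearest to 1 was mir-23a-3p to mir-23b-3p, and the farthest was mir-24-3p to mir-27b-3p at 3.51 (3.44 to 3.58). At this depth a passed test says that counting error is small and not that the animals or stages differ. In the lactation library mir-27a-3p and mir-27b-3p, neighbours in the order of levels, did not differ beyond counting error by the listed sequence. With all isomiRs mir-27a-3p was 48.8% (48.4 to 49.3) of the pair there, a small difference that exceeded counting error.

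**Figure D4:**
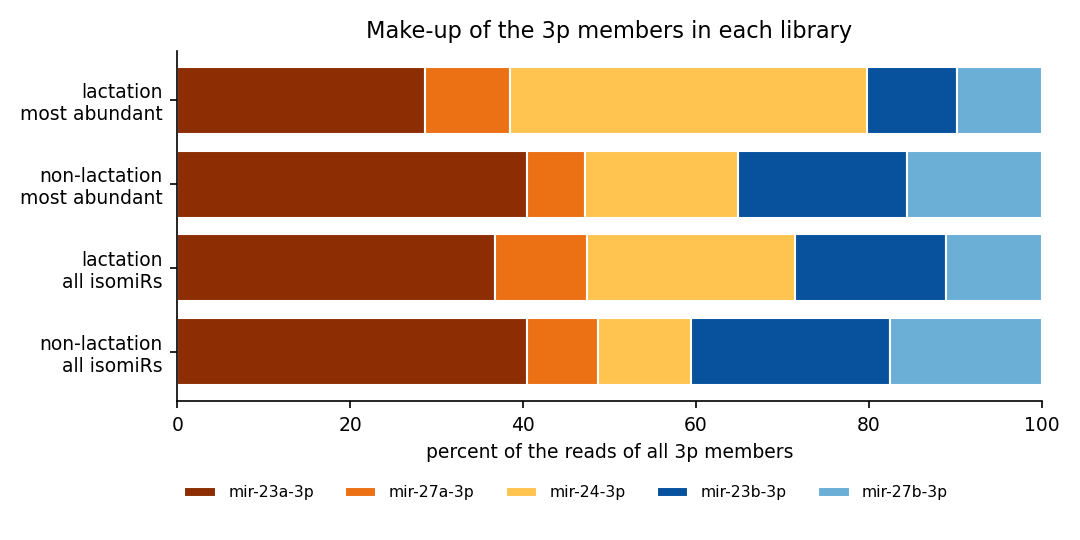
Percent of the reads of all 3p members held by each, in lactation and non-lactation, for the most abundant sequence and for all isomiRs. mir-24-3p holds 41.3% of these reads in lactation and 17.7% in non-lactation, and mir-23a-3p holds 28.7% and 40.4%.

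The summed reads of a seed are nearest to what the shared targets would meet. All entries with the mir-23 seed UCACAUU summed to 3098 RPM in lactation and 5284 in non-lactation, 1.71-fold lower (1.68 to 1.73). With all isomiRs the difference was 1.24-fold (1.23 to 1.25). All entries with the mir-27 seed UCACAGU held 1549 and 1968 RPM, 1.27-fold lower (1.25 to 1.29), and with all isomiRs they were also 1.27-fold lower (1.25 to 1.28). On the scale of clean reads the opposite directions of mir-27a-3p and mir-27b-3p thus left a smaller difference in their sum than in mir-27b-3p. The direction of mir-27a-3p turned when the reads were not scaled. mir-24-3p was the only entry with the seed GGCUCAG, at 2.09 (2.06 to 2.12) and, with all isomiRs, 2.08 (2.06 to 2.11).

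The difference of the mir-23 forms lay mostly in their most abundant sequence. For mir-23a-3p all isomiRs summed to 90330 and 140986 reads, and the listed sequence was 30.0% (29.7 to 30.3) of them in lactation and 40.2% (40.0 to 40.5) in non-lactation. The remaining isomiRs of mir-23a-3p stood at 5288 and 5277 RPM, a ratio of 1.00 (0.992 to 1.01), beside 0.637 for the listed sequence. On the scale of clean reads the other variants of mir-23a-3p were therefore level between the libraries.

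For mir-23b-3p all isomiRs summed to 42969 and 80161 reads, of which the listed sequence was 22.8% (22.4 to 23.2) and 34.3% (34.0 to 34.6). Its remaining isomiRs were at 2771 and 3298 RPM, a ratio of 0.840 (0.829 to 0.852), beside 0.476 for the listed sequence. With all isomiRs mir-23a-3p was 1.17-fold lower (1.16 to 1.18) and mir-23b-3p 1.40-fold lower (1.38 to 1.41).

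The other members kept nearly the same share. The listed sequence of mir-24-3p was 65.9% (65.5 to 66.3) of 59050 isomiR reads in lactation and 65.8% (65.3 to 66.2) of 37801 in non-lactation, with intervals that overlap. That of mir-27a-3p was 35.7% (35.1 to 36.2) and 33.2% (32.6 to 33.7), and that of mir-27b-3p 34.2% (33.6 to 34.8) and 35.7% (35.4 to 36.1). mir-24-3p was thus the member whose reads were most often the listed sequence.

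The share of the listed sequence was compared for all 99 known miRNAs with at least 1000 isomiR reads in each library. Of the 5 members among them, 3 were called lower in the lactation library (mir-23a-3p, mir-23b-3p and mir-27b-3p), against 35.4% of the 99, and 1 higher (mir-27a-3p), against 29.3%. The share of mir-23b-3p fell by 11.5 percentage points and that of mir-23a-3p fell by 10.3, the seventh and the ninth largest falls, and 11 of the 99 fell by at least 10 points. The median change over the 99 was -0.50 points. The 5 largest falls were those of mir-148b-3p, mir-148a-3p, mir-29b-3p, mir-15b-5p and mir-151-3p, so a fall of this size was not particular to mir-23.

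**Figure D5:**
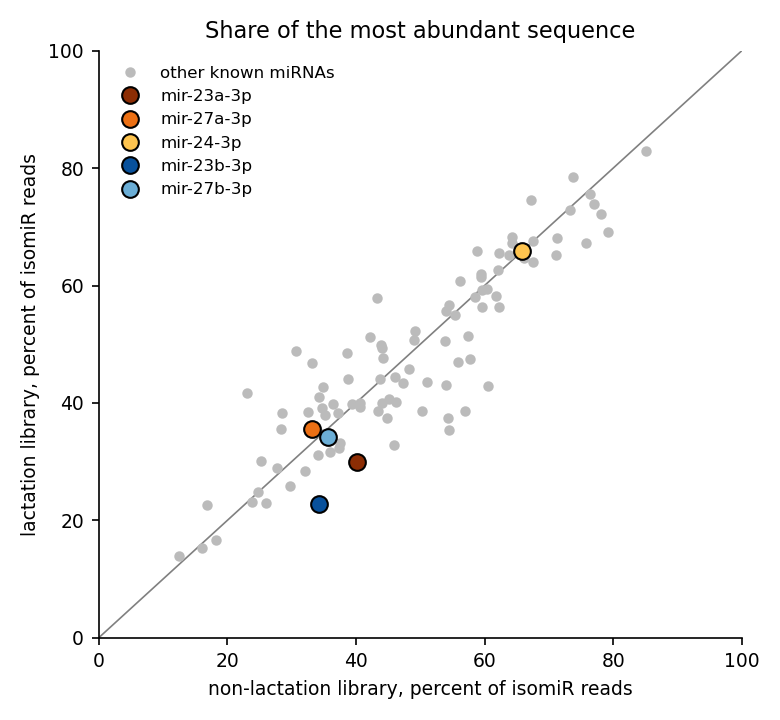
Share of the most abundant sequence in all isomiR reads (percent) in the non-lactation library (x axis) and the lactation library (y axis) for 99 known miRNAs, with the 3p members coloured and a line where both shares are equal. mir-23a-3p and mir-23b-3p lie below the line, at 30.0% against 40.2% and at 22.8% against 34.3%, and the other members lie close to it.

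Other entries at or near the hairpins held few reads. The conserved entry PC-23b-1-3p, listed at a locus in each cluster, has the mir-23 seed and differs from both mir-23 forms by U18A at its last base. It had 193 and 167 reads, a ratio of 1.54 (1.25 to 1.91), above 1 where both mir-23 forms were below. PC-27-1-3p, listed at a locus within each mir-27 hairpin, had 3 and 16 reads, a ratio of 0.250 (0.0467 to 0.874). The candidate CN-190-5p on chromosome 5 (chr5:30835540-30835601, minus strand) shares the first 17 bases of both mir-27 forms and had 0 and 152 reads. With the listed 0 set to 3 reads its ratio was 0.0263 (0.00537 to 0.0785). Whether that 0 reflects the tissue or the way reads were assigned and listed was not tested. These sequences are shown with the seed in capitals for comparison with the members.
PC-23b-1-3p: aUCACAUUgccagggaua
PC-27-1-3p: uUCACAGUggcuaaguucugag
CN-190-5p: uUCACAGUggcuaaguuaa

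Opposite arms of the mir-23a and mir-27b hairpins were listed among the candidates. CN-90-5p, which shares its seed GGGUUCC with mir-23b-5p, had 0 lactation and 5 non-lactation reads. A count of 0 there allows up to 0.0111% of the reads of the mir-23a hairpin, and the non-lactation share was 0.00881% (0.00286 to 0.0206), so no difference was detectable at this depth. CN-421-5p had 45 and 89 reads, or 0.482% (0.352 to 0.645) and 0.406% (0.326 to 0.500) of the mir-27b hairpin.
CN-90-5p: gGGGUUCCuggggaugggauu
CN-421-5p: aGAGCUUAgcugauuggugaaca

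mir-23b-5p was 0.366% (0.256 to 0.506) of the reads of its hairpin in lactation and 0.232% (0.179 to 0.296) in non-lactation. mir-24-5p was 0.0180% (0.00723 to 0.0370) and 0.0201% (0.00653 to 0.0469) of the mir-24 reads. That share sets 5p values listed on chromosome 8 against 3p values listed on chromosome 7, so it is not the share of a single hairpin. None of these 4 pairs of arms passed Fisher's exact test after Bonferroni adjustment over them, and 1 had an unadjusted p under 0.05 (mir-23b, exact p = 0.031). With all isomiRs none passed either. The unadjusted p from Fisher's exact test was then 0.093 for mir-23b and 0.026 for mir-23a, which had 0 and 8 reads of the 5p arm. The 5p strand thus made up at most 0.482% of the reads of these hairpins in either library. Over 73 hairpins with both arms listed and at least 1000 reads, the median share of the rarer arm was 0.402%. No 5p strand is listed for mir-27a.

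Transcription as a cluster would let neighbours move together, so the spread of log2 ratios was measured within genomic clusters. Among 30 clusters of known miRNAs with gaps of at most 10 kb and at least 2 miRNAs of 100 summed reads or more, the chromosome 7 cluster had the sixth widest range, 1.71 from mir-23a-3p (-0.65) to mir-24-3p (1.06). The median range was 1.15. The chromosome 8 cluster ranked 22 with a range of 0.66, from mir-23b-3p (-1.07) to mir-23b-5p (-0.41), an end that rests on 100 reads in all. mir-24-3p was counted on chromosome 7 alone, where it is listed. Its reads may also come from the chromosome 8 copy, and its value of 1.06 lies outside the range given for that cluster. The ranks therefore do not show which of the clusters had the wider spread. These ranges are descriptions with no test. With all isomiRs the range of the chromosome 7 cluster was 1.29 and its rank 15 of 32 clusters.

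Markers of the cell types in the gland moved as well, and their part in the members' ratios was not tested. They were called by the same Fisher's exact test, which called 17.4% of all 883 miRNAs higher and 10.9% lower. Both strands of endothelial mir-126 were called higher in the lactation library, with mir-126-3p at 94.8 and 44.8 RPM, a ratio of 2.12 (1.93 to 2.33), and mir-126-5p at 392.1 and 120.0 RPM, a ratio of 3.27 (3.10 to 3.45). The mir-24-3p ratio of 2.09 lay near that of mir-126-3p, but markers of other cell types lay near it too. Epithelial mir-429-3p was at 2.22 (2.08 to 2.37), and mir-143-3p of stroma and smooth muscle at 2.35 (2.31 to 2.40). Nearness to mir-126-3p therefore singles out no cell type. mir-27a-3p lay on the same side of 1, and both mir-23 forms and mir-27b-3p on the other. Of 6 epithelial markers, 5 were called higher and 1 lower, and their summed level was 12385 RPM against 2596. Among 6 markers of stroma and smooth muscle 2 were called higher and 3 lower, with sums of 8640 and 14558 RPM.

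Of 3 striated muscle markers 2 were called higher in the lactation library, with sums of 4480 and 696.0 RPM, mostly mir-1-3p at 4393 and 691.4. Of 4 leukocyte markers 2 were called lower, with sums of 64.8 and 116.0 RPM, and of 3 erythrocyte markers 2 were called higher, with sums of 90.8 and 32.5 RPM, where mir-144-3p had 0 reads in the non-lactation library. In tissue like this, fewer cells of a type and less RNA per cell cannot be told apart.

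Other miRNAs linked to the same functions did not share 1 direction. The lists were not divided into miRNAs that promote and miRNAs that restrain a function. No shared direction was therefore foreseen, and the counts and medians do not bear on the functions. Fisher's exact test called 17.4% of all 883 miRNAs higher and 10.9% lower. Of 9 miRNAs linked to vessel growth 7 were listed under the names used, of which 2 were called higher (mir-126-3p and mir-17-5p), 3 lower (mir-221-3p, mir-222-3p and mir-130a-3p) and 2 neither way. mir-221-3p was 3.97-fold lower (3.83 to 4.12) and mir-222-3p 2.53-fold lower (2.41 to 2.67). Of 8 miRNAs linked to fat cell formation 7 were listed, of which 4 were called higher (mir-143-3p, mir-103-3p, mir-30a-5p and mir-30d-5p), 2 lower (mir-130a-3p and mir-107-3p) and 1 neither way. mir-30a-5p, which promotes fat cell formation, had a ratio of 3.77 (3.73 to 3.80), and mir-107-3p had 0 and 115244 reads. Whether that 0 reflects the tissue or the way reads were assigned and listed was not tested, so it should not be read as an on and off change. The median log2 ratio was -0.55 over the listed vessel miRNAs and 0.60 over the listed fat miRNAs, beside 0.24 over all 273.

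The known miRNAs of at least 1000 summed reads with the nearest log2 ratio were, for each 3p member, found over these 2 libraries alone. They were mir-181a-5p (-0.65) and mir-192-5p (-0.67) for mir-23a-3p at -0.65, and mir-151-3p (-1.08) and mir-191-5p (-1.04) for mir-23b-3p at -1.07. For mir-24-3p at 1.06 they were mir-185-5p (1.05) and mir-126-3p (1.08). For mir-27a-3p at 0.39 they were mir-30e-5p and mir-30c-5p, both at 0.38, and for mir-27b-3p at -0.82 they were mir-15b-5p (-0.73) and mir-29b-3p (-0.69). Among 100 candidates a near value is common, and with 2 libraries likeness of pattern is likeness of 1 ratio.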

How the data were processed

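Per the methods, reads of 1 lactating and 1 non-lactating mammary gland were freed of adaptors, poor reads and other classes of RNA, and ACGT-miR aligned the clean reads with miRBase 17.0 hairpins and the BTA 4.0 genome. Deposited read counts were made by the authors for the most abundant sequence and for all isomiRs of each miRNA, with the number of isomiR kinds. In the table of candidates (CN) the columns of isomiR reads and kinds were exchanged against their headers, because the labelled order puts sums below the listed sequence, and isomiR sums of 7 entries, none a member, were left out as blank or too small.

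RPM used 11964909 and 15968116 clean reads as totals, which the study gives. Ratios have exact conditional Clopper-Pearson intervals, and shares have exact binomial ones. A listed 0 was set to 3 reads. Fisher's exact test was two-sided with a threshold of 0.05, over 883 miRNAs with a value in both libraries. Arms were paired by identical coordinates, except that mir-24 was paired by name, with 5p values listed on chromosome 8 and 3p values on chromosome 7. The members were found by name, and both they and the lists were chosen with earlier results of these data known. Named miRNAs are the members, entries that share their hairpins, first 16 bases or seed, markers of cell types, 2 lists of miRNAs linked to vessels and fat, and those nearest in ratio or with the largest fall in share. The functions were tested on simulated counts. Alternatives were other scalings, all isomiR reads, thresholds and cluster definitions. Python 3.11.15 (numpy 2.4.6, scipy 1.17.1, pandas 2.3.3) and R 4.3.3 (scaling factors from edgeR 4.0.16 and from DESeq2 1.42.0) were used. No genome sequence was used.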

Additional observations from a re-analysis of the deposited data

How the results depend on the processing

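Of 104 values under alternative settings, 88 kept their direction and their side of the threshold or stayed close to the main value, 14 moved and 2 reversed. Without scaling the ratio of mir-27a-3p was 0.979, and with all isomiRs the odds ratio of mir-23b-3p to mir-27b-3p was 1.20. The ratios of the other 3p members and the odds ratios of the other 9 pairs kept their direction and their call under the alternatives run for them. The count of members at least 2-fold higher was 0 with raw reads, TMM, DESeq2, no scaling or a fold of 4. The count at least 2-fold lower was 3 without scaling or with a fold of 1.5, 2 with TMM or DESeq2, and 0 with all isomiRs or a fold of 4. The chromosome 7 cluster ranked 1 of 19 clusters with a minimum of 1000 reads. The moves under scaling follow from the totals and those under folds from the threshold, and the cause of the others was not tested. Adding entries with the same first bases changed mir-27b-3p alone, since the other entries matched both paralogs equally. No paired analysis was possible because there was 1 library per condition. Depth limits the 5p strands, and for the 3p strands the missing replicates limit the precision rather than depth.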

Other observations

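The number of isomiR kinds was higher in the lactation library for the 3p members, with fewer isomiR reads in 4 of the 5. mir-23a-3p had 286 kinds in 90330 reads there and 258 kinds in 140986 reads in the non-lactation library. mir-23b-3p had 240 and 187 kinds, mir-27b-3p 163 and 134, mir-27a-3p 125 and 85, and mir-24-3p 157 and 92. Of the 57 known miRNAs with at least 1000 isomiR reads in each library and fewer of them in the lactation library, 29, or 50.9%, had more kinds there, so the pattern is not particular to these members. No test was run.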
